A study of Mus musculus with 32 samples.

Results

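The genes described here encode the proteins of the cytosolic ribosome. They were chosen by name: a row was a member if its symbol was Rpl or Rps followed by a number, with an optional letter and an optional further digit, or was Rplp0, Rplp1, Rplp2 or Rpsa, and if it was above 0 in at least 16 of the 32 libraries. Of the 45706 genes in the table, 88 met the name rule and 85 of these met the count rule, 50 of the large and 35 of the small subunit. Of the 85, 82 are annotated as protein-coding, and Rps3a2, Rps3a3 and Rps12l2 are annotated as processed pseudogenes. The lowest members by the count rule were Rpl39l (above 0 in 16 libraries), Rps12l2 (23) and Rpl3l (27), while Rps12l1 (7), Rps4l (6) and Rpl10l (2) fell outside it. The names alone do not hold the whole ribosome, since some ribosomal proteins have other gene names, such as that encoded by the fusion gene Fau.

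A ribosome is built from a large and a small subunit, each a ribosomal RNA core with many small proteins, most of them made from 1 expressed gene and present in 1 copy per particle. Their mRNAs are short, abundant and often begin with a cytosine followed by a run of pyrimidines, the 5′ terminal oligopyrimidine (TOP) tract, through which the kinase complex mTORC1 and the RNA-binding protein Larp1 control their translation. In macrophages, including microglia, translation of mRNAs is one of the steps at which inflammatory activation is controlled, and Rpl13a is known for a role outside the ribosome in silencing inflammatory transcripts.

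The samples were of BV-2, a continuous microglial cell line from mouse with wild-type genotype, which the labels also call glioblastoma. For 24 h the cells were kept with vehicle (VEH) or with 10 ng/ml LPS, lipopolysaccharide from the outer membrane of bacteria, which triggers an inflammatory response in microglia. They were also transfected with a scramble negative control or with a mimic of a microRNA (miR-7a, miR-29a or miR-146a) that the study examined for effects on phagocytosis. The sources differ on whether LPS came before or after the transfection. The 8 groups, VEH_scramble, VEH_miR-7a, VEH_miR-29a, VEH_miR-146a, LPS_scramble, LPS_miR-7a, LPS_miR-29a and LPS_miR-146a, held 4 libraries each. All cells were of 1 line, every group was transfected, and a group without transfection was not analysed here.

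Depth differed between libraries, with 1130000 to 20300000 estimated counts a library, and 3 counts corresponded to 0.148 to 2.65 CPM, the counts scaled to a common library size. Small structural RNA genes took 2.94% to 36.6% of a library, and VEH_miR-7a stood apart, with 33.4% to 36.6% in replicates 2 to 4 against 7.02% in replicate 1. Of 8 macrophage markers all 8 were above 0 in all 32 libraries, with summed levels of 1650 to 3960 CPM, but Csf1r, the receptor for the growth factor that microglia depend on, reached only 1.15 CPM. The astrocyte, neuron and endothelium markers summed to at most 3.79 CPM, and the astrocyte marker Gfap was above 0 in 6 libraries. Under LPS in scramble cells Itgam rose by 0.54 on the log2 scale (SE 0.17) while Trem2 fell by 1.37 (SE 0.16), Spi1 by 0.74 (SE 0.22), Fcgr3 by 0.68 (SE 0.18) and the oligodendrocyte gene Mbp by 0.91 (SE 0.26, from 5.66 to 2.96 CPM), all at an adjusted p under 0.05 by limma-voom. Their part in the results on ribosomal protein genes was not tested.

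The first bases of the transcripts are shown for 6 members, since the TOP tract is the feature best known to be shared by these mRNAs. Of the 85 members, 62 had a RefSeq promoter sequence (build GRCm38.p6). Each window below runs 5′ to 3′ from 10 bases before the annotated start through the first 20 transcribed bases, and capitals mark a tract of C followed by at least 4 of C or T that begins within 5 bases of the start on the coding strand. Rpl35, Rps10, Rplp2 and Rps6 have a tract at the start base, and Rplp0 and Rpsa have none in that range.
Rpl35, chr2:39005112-39005141, minus strand: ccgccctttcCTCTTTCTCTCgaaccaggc
Rps10, chr17:27635225-27635254, minus strand: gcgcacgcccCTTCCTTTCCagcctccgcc
Rplp2, chr7:141447641-141447670, plus strand: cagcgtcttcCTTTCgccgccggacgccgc
Rps6, chr4:86857348-86857377, minus strand: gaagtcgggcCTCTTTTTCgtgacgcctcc
Rplp0, chr5:115559457-115559486, plus strand: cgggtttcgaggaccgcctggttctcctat
Rpsa, chr9:120127756-120127785, plus strand: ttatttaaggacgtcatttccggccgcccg
A tract began exactly at the annotated start in 13 of 62 members, against 3.01% of 27025 genes with a promoter sequence. Within 5 bases of the start it was found in 29 members (46.8%), against 21.2% of these genes and 18.3% of all 32851 promoters of the same length. The tracts were 5 to 17 bases long, with a median of 8. An annotated start can lie some bases away from the start used in these cells, which the deposited values do not show.

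The mimics are shown because their seed, bases 2 to 8 from the 5′ end and in capitals below, is the stretch by which a microRNA recognises its targets. The 3 seeds differ from each other. The sequences are the mature forms in RefSeq, the arms being those that the labels name.
miR-7a-5p: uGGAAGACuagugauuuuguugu
miR-29a-3p: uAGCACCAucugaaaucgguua
miR-146a-5p: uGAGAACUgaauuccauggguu
Few members carry the complement of a seed in their 3′ UTR, as annotated in GENCODE vM21. The miR-7a site GTCTTCC was found in 3 of 82 members (3.66%; Rpl5, Rpl6 and Rps15a), against 12.7% of 12238 other genes. The miR-29a site TGGTGCT was found in 5 members (6.1%; Rpl22, Rpl5, Rps15a, Rps20 and Rps3), against 14.2% of other genes. The miR-146a site AGTTCTC was found in 3 members (3.66%; Rpl10, Rpl22 and Rps15a), against 11.1%. The 3′ UTR of members was short, with a median of 88 bases against 991 bases in the other genes, and the sites were counted without regard to this.

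The mean level of the members, as normalised CPM per kb of transcript, ranged from 0.319 to 2260 with a median of 866, and 29 members lay above 1000. The highest level was that of Rplp0, the scaffold of the stalk that recruits elongation factors, at 2260 CPM per kb, followed by its partner Rplp1 at 2150 CPM per kb. Rpl13 (1900), Rpl23a (1710) and Rpl3 (1680), all of the large subunit, came next. The lower end held the copies: the pseudogenes Rps3a2 (32.9 CPM per kb), Rps3a3 (5.1) and Rps12l2 (2.37), and the tissue-restricted paralogs Rpl3l (0.499) and Rpl39l (0.319). Rpl3l is known from muscle and Rpl39l from testis. Together 79 members lay above 100 CPM per kb and 4 under 10.

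**Figure D1:**
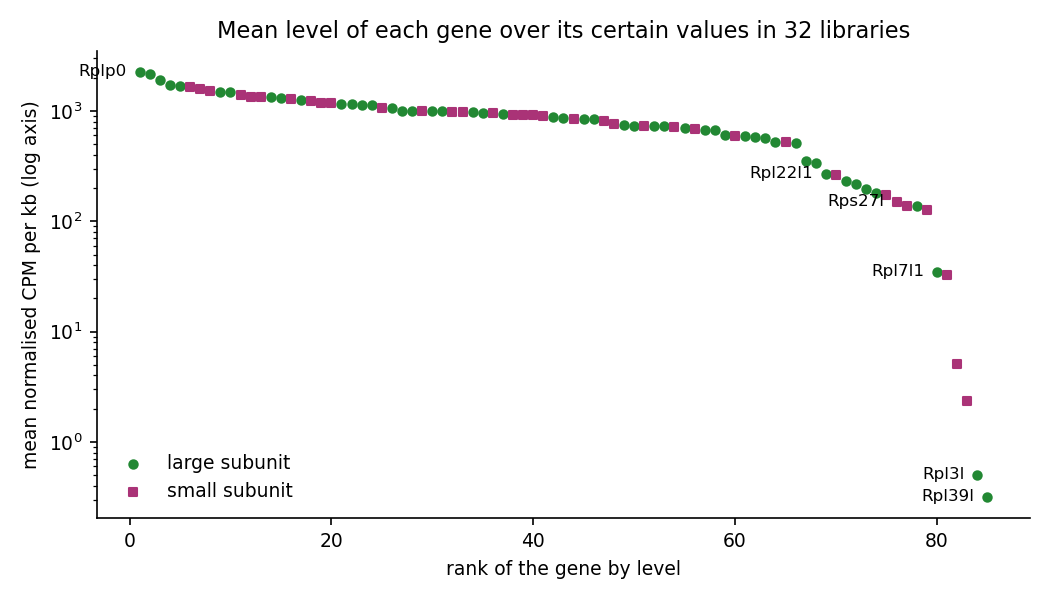
Mean level of each of the 85 genes as normalised CPM per kb of transcript (log axis), over the values read with certainty in 32 libraries, in order of level, with circles for the large and squares for the small subunit. From Rplp0 at 2260 the levels fall slowly to over 100 for 79 genes and then drop to 0.499 for Rpl3l and 0.319 for Rpl39l.

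Many members have near-identical copies elsewhere in the genome, between which estimated counts can be split. Of the 85, 78 have at least 1 other annotated gene whose transcript matches 80% of their coding sequence at 95% identity or more, and 469 such rows outside the members are in the table, 432 of them processed pseudogenes. In each library these rows held 5.15% to 7.55% of the counts of members and similar rows together. The share passed 10% for 15 members, and was highest for the pseudogenes Rps3a3 (99.7%) and Rps3a2 (98.0%), followed by 77.9% for Rpl24, 33.6% for Rpl35, 31.3% for Rpl5 and 24.1% for Rplp1. The values of these members are uncertain in that sense.

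The 85 members held the largest share of counts in VEH_scramble. There they took 7.19%, 6.03%, 10.5% and 9.31% of the counts of replicates 1 to 4 (mean 8.26% ± 2.02, SD, n = 4). In LPS_scramble they took 5.79%, 4.76%, 6.52% and 5.73% (mean 5.7% ± 0.722, SD, n = 4). The ranges overlap, because VEH_scramble replicate 2 lies within the LPS range, while replicates 3 and 4 stand above all other libraries. Between libraries of the same replicate number, which the check paired here, the LPS share was the lower in 4 of 4 pairs. With mimics the VEH groups averaged 5.22% ± 0.893 (miR-7a), 6.22% ± 0.637 (miR-29a) and 6.2% ± 0.176 (miR-146a), and the LPS groups 4.78% ± 0.793 (miR-7a), 5.52% ± 0.728 (miR-29a) and 5.03% ± 1.05 (miR-146a), SD with n = 4 each. As a share of protein-coding counts, VEH_miR-7a averaged 8.07% ± 0.796 (SD, n = 4), since the structural RNA of its libraries then drops out. Replicate 2 had the lowest share of members in 8 of 8 groups, but as a share of protein-coding counts in 6 of 8, and it had the lowest share of mitochondrial counts in 6 of 8. The size of the shares depended on the restoration of decimal marks. With the marks placed by level alone, the mean was 3.96% in VEH_scramble and 2.57% in LPS_scramble. A share is relative, so that fewer ribosomal protein mRNAs per cell and more of other RNA cannot be told apart in these bulk samples.

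**Figure D2:**
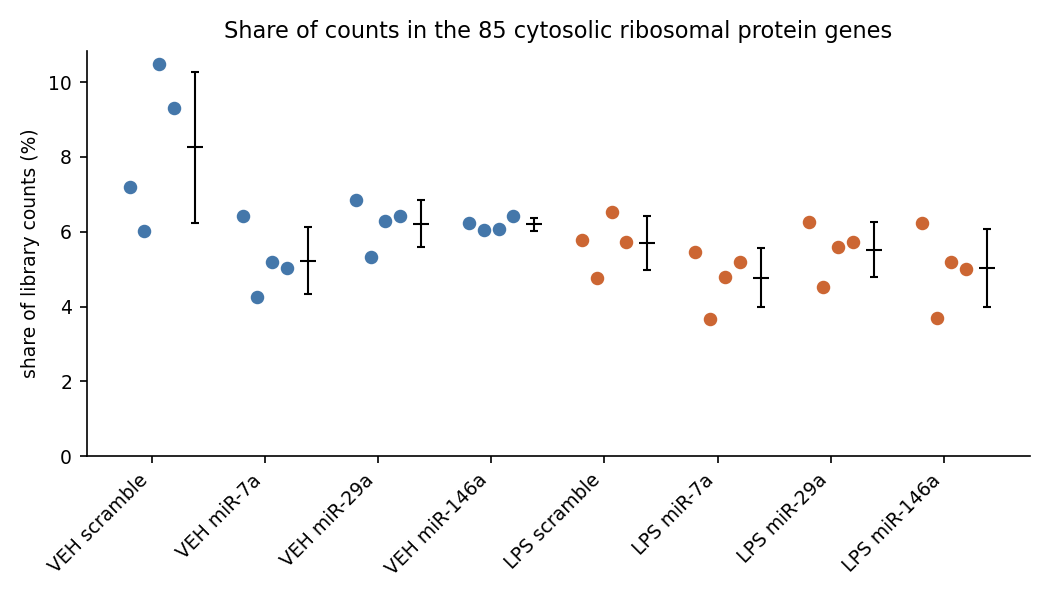
Share of the estimated counts of each library (%) in the 85 genes, with points for replicates 1 to 4 from left to right in each group (blue, VEH; orange, LPS) and the mean with its SD in black. VEH_scramble replicates 3 and 4 stand highest at 10.5% and 9.31%, and replicate 2 is the lowest point in every group.

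LPS was compared with VEH in scramble cells, the comparison that asks what activation alone does. All 75 members tested lay lower under LPS, with a median log2 fold change of -0.68 (quartiles -0.83 and -0.53), against 0.01 over all 12295 genes tested. Of these 75, 33 passed the test, 17 of 45 in the large and 16 of 30 in the small subunit, and 0 members passed as higher. The test was limma-voom with Benjamini-Hochberg adjustment over all genes tested, and a gene was called at an adjusted p under 0.05. Over all genes 17.4% were called, 8.13% lower and 9.23% higher. In 34 members (45.3% of those tested) the 4 LPS libraries all lay below the 4 VEH libraries, as they did in 10.8% of all genes. With the replicate number as a block, which the pairing check allowed here, 59 members were called lower, against 24.6% of all genes called in either direction. By rule, 10 members were left out of the test: Rpl10, Rpl14, Rpl35a, Rps12l2, Rps27, Rps28, Rps3a3 and Rps4x held at least 1 value whose decimal mark could not be placed with certainty, and Rpl39l and Rpl3l were too low.

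The proteins of the stalk of the large subunit were all called lower. Rplp0 (chr5:115559467-115563727, plus strand, 7 exons, build GRCm38) stood at 3730, 4300, 5480 and 4580 normalised CPM in the VEH libraries and at 2610, 2530, 2730 and 2360 under LPS. It fell by 0.80 on the log2 scale (SE 0.16, limma-voom adjusted p = 0.00604), with no overlap between groups. Rplp1 (chr9:61913284-61914542, minus strand), a phosphoprotein of the stalk, stood at 957, 1510, 1780 and 1970 CPM and under LPS at 581, 701, 926 and 752. The lowest VEH library of Rplp1 lies just above its highest LPS library, and the log2 fold change was -1.05 (SE 0.23, limma-voom adjusted p = 0.00987). Rplp2 (chr7:141447370-141451585, plus strand), which pairs with Rplp1, stood at 474, 942, 1440 and 1440 CPM and under LPS at 379, 275, 619 and 419. Its log2 fold change of -1.27 (SE 0.34, limma-voom adjusted p = 0.0257) rests on groups that overlap, because VEH replicate 1 is lower than LPS replicate 3, although LPS was the lower in 4 of 4 same-numbered pairs.

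Members of the small subunit were called lower as well. Rpsa (chr9:120127689-120132369, plus strand), also known as the laminin receptor, stood at 2390, 2910, 4000 and 3250 CPM in the VEH libraries and at 1610, 1700, 1780 and 1410 under LPS. The LPS libraries of Rpsa lie close together and clearly below the VEH libraries, and it fell by 0.92 (SE 0.18, limma-voom adjusted p = 0.0053). Rps19 and Rps14, whose human counterparts are lost or reduced in inherited or acquired anaemias, fell by 0.93 (SE 0.21) and 0.91 (SE 0.18), at adjusted p = 0.0132 and 0.00697 by limma-voom.

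Other members with known roles outside the ribosome lay between -0.85 and -0.53. Rpl11 and Rpl5, which with 5S ribosomal RNA can bind the p53 regulator Mdm2, differed in their test: Rpl11 fell by 0.75 (SE 0.17), while Rpl5 had a larger estimate of -0.85 with a wider error (SE 0.39) and an adjusted p = 0.149 by limma-voom. Rpl13a fell by 0.70 (SE 0.20, limma-voom adjusted p = 0.0359), and Rps3, which also takes part in DNA repair and in NF-kappa-B complexes, fell by 0.53 (SE 0.16, limma-voom adjusted p = 0.0446). Rps27a, a fusion of ubiquitin and a ribosomal protein, fell by 0.73 (SE 0.23, limma-voom adjusted p = 0.0472).

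Rps6, the substrate of S6 kinase, stood at 1220, 1070, 1390 and 1120 CPM in the VEH and at 1010, 827, 963 and 888 under LPS. The groups did not overlap, but its log2 fold change of -0.36 (SE 0.15) missed the threshold at a limma-voom adjusted p = 0.108. Rpl3, of the peptidyl transferase centre, was similar, at -0.43 (SE 0.16) and an adjusted p = 0.0879 by limma-voom. Rpl38 (-0.60, SE 0.39), Rpl36a (-0.58, SE 0.31), Rpl39 (-0.44, SE 0.26) and Rps29 (-0.88, SE 0.31) were below 0 without passing the test.

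Large called changes were also those of Rpl36 (-1.12, SE 0.28), Rpl10a (-0.95, SE 0.21), Rpl37a (-0.95, SE 0.23), Rps16 (-0.94, SE 0.18), Rps10 (-0.93, SE 0.21) and Rpl35 (-0.90, SE 0.26). All are core proteins of the particle. Small changes, in contrast, were those of a pseudogene and of paralogs: Rps27l (-0.32, SE 0.33), Rpl22l1 (-0.26, SE 0.21), Rps3a2 (-0.22, SE 0.21) and Rpl7l1 (-0.10, SE 0.14), none of which passed the test.

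**Figure D3:**
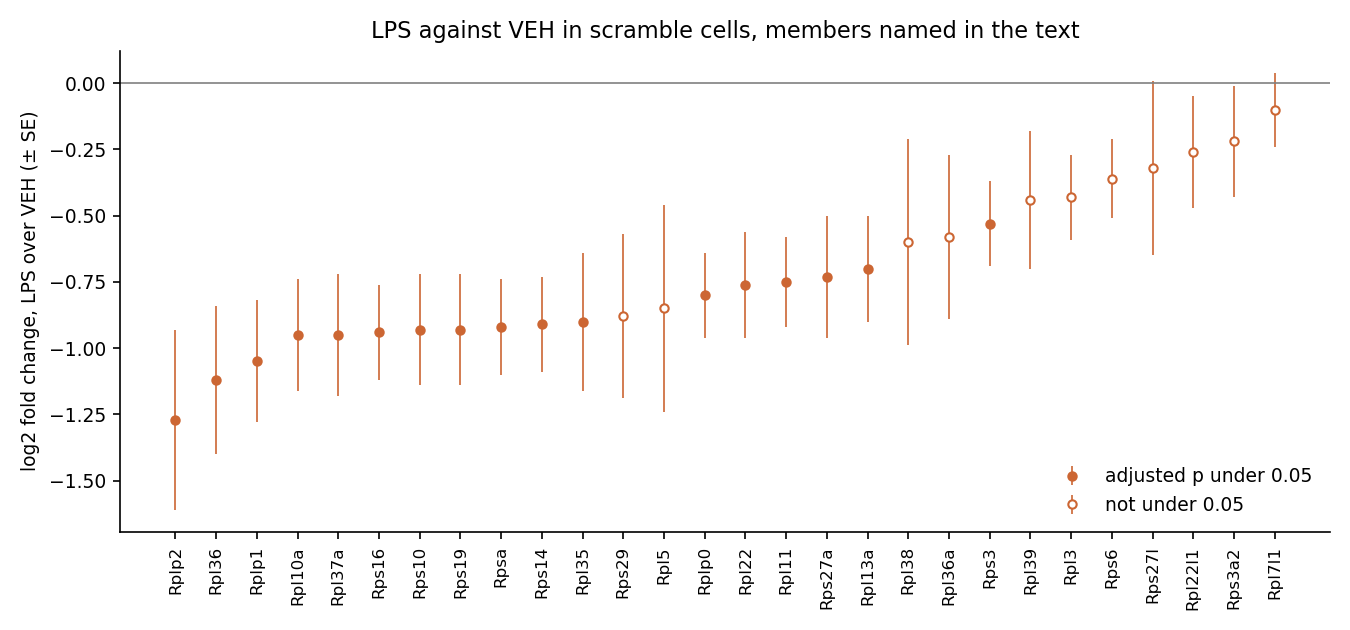
Log2 fold change of LPS over VEH in scramble cells for the members named in the text, in order of size, with bars for the SE from limma-voom, filled circles for an adjusted p under 0.05 and open circles for the rest. The estimates shown lie below 0, from -1.27 for Rplp2 to -0.1 for Rpl7l1, and the paralogs and Rps6 are among the open circles at the right.

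The number of calls depended on single libraries and on the reading of the values. VEH_scramble replicates 3 and 4, the libraries with the highest member share, decided many calls: 18 members were called without replicate 3 and 14 without replicate 4. The count was 13 without LPS_scramble replicate 4, 20 without replicate 1 or replicate 2 of LPS_scramble, and 48 without VEH_scramble replicate 2. The median over members stayed between -0.83 and -0.46 in these fits. How many of all genes were called in them is not given here. Most deposited values of members had lost their decimal mark, and placing it by the gene's level alone, without the digits, left 1 member called here, 8 in miR-7a, 0 in miR-29a and 0 in miR-146a cells.

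Transcript length moved with the comparison. The canonical transcripts of members run from 345 to 5179 bases, with a median of 860. Other genes between 496 and 1887 bases, the range from the 10th to the 90th percentile of members, had a median log2 fold change of -0.15 (3113 genes) in this comparison, and genes over 4000 bases a median of 0.12. When a smooth trend with transcript length and GC content was removed from each library, the median over members was -0.5 and 28 were called lower. The share of all genes called after this step is not given here. Among the 75 members, Spearman's rho of the fold change was 0.16 with transcript length, -0.38 with GC content and -0.27 with CPM per kb, as a description across genes that share libraries. The share of small structural RNA also moved with the comparison, from 6.89%, 11.8%, 10.7% and 9.5% in VEH_scramble to 5.92%, 3.04%, 4.35% and 3.42% in LPS_scramble, without overlap. With library sizes taken from other protein-coding genes alone, which leaves structural RNA out of the scaling, the median over members was -0.69 and 33 were called lower. The part of RNA quality in the difference was not tested.

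Members with and without a TOP tract near the annotated start were both among those that fell. Of 26 tested members with a tract within 5 bases of the start, 11 were called lower with a median of -0.63, and of 28 without one, 14 were called with a median of -0.7. The difference between these sets was not tested.

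Paralogs were compared by their share of the mRNA counts of a pair. Which protein was built into ribosomes was not measured. Rpl22l1 is a paralog of Rpl22 and the products of both can take the same place in the large subunit. Rpl22 stood at 544, 438, 857 and 645 CPM in VEH_scramble and fell to 412, 304, 363 and 338 in LPS_scramble, a log2 fold change of -0.76 (SE 0.20, limma-voom adjusted p = 0.0256). Rpl22l1 stood at 148, 124, 233 and 166 CPM and at 171, 110, 145 and 123. Its share of the counts of the pair was thus 21.3% ± 0.694 in VEH_scramble and 27.8% ± 1.38 in LPS_scramble (SD, n = 4 each), with ranges of 20.4% to 22.1% and 26.6% to 29.4%. In the miR-29a groups it was 22.9% ± 1.72 under VEH and 33.6% ± 2.23 under LPS (SD, n = 4 each), again without overlap, while in the miR-7a and miR-146a groups the ranges overlapped. Rps27l, a paralog of Rps27 known as a p53 target, held 9.98% to 13.5% of its pair in 3 libraries of VEH_scramble and 15.7% to 17.6% in LPS_scramble. It did not overlap between VEH and LPS in miR-29a cells either (12.6% ± 1.07 and 17.7% ± 1.89, SD, n = 4 each), but did in miR-7a cells (9.83% to 19.1% and 15.1% to 20.9%) and in miR-146a cells (11.3% to 15.3% and 13.2% to 18.5%). The share of Rpl7l1 in its pair with Rpl7 overlapped in scramble cells, at 4.41% to 7.01% and 6.22% to 13.1%. These shares are descriptions and were not tested. They were not corrected for transcript length, which is 552 bases for Rpl22l1 and 2051 bases for Rpl22.

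Rpl39l was at the limit of detection. It met the count rule with exactly 16 libraries above 0, of which 14 were LPS libraries with at most 9 counts and 2 were VEH libraries with at most 2 counts, so that it is a member only through its LPS libraries and this split is not a result. The totals of the VEH libraries ran from 1130000 to 9450000 counts and those of the LPS libraries from 2690000 to 20300000, and no fold is given. Rpl3l was above 0 in 12 of 16 VEH and 15 of 16 LPS libraries.

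The same question was asked in cells with each mimic, whose libraries are separate from those of scramble cells. In miR-7a cells, 41 of 77 members tested were called lower and 0 higher, against 4.01% of all 11875 genes called lower and 2.63% higher (6.64% in all), with a median of -0.69. In miR-29a cells, 16 of 78 were called lower and 0 higher, against 13.7% of all 12201 genes called lower and 12.6% higher (26.3% in all), with a median of -0.24. In miR-146a cells, 2 of 79, Rps10 and Rps21, were called lower and 0 higher, against 1.58% of all 12084 genes called lower and 2.83% higher (4.41% in all), with a median of -0.47. The members called lower made up 53.2% of those tested in miR-7a, 20.5% in miR-29a and 2.53% in miR-146a cells. The groups did not overlap, with LPS lower, in 46 members of miR-7a cells against 6.32% of all genes, in 16 of miR-29a cells against 13.1% and in 13 of miR-146a cells against 5.15%. Of the 73 members tested in all 4 LPS comparisons, 64 (87.7%) lay below 0 in all, against 23.2% of the 11109 genes tested in all 4. Of the same 73 members, 13 (17.8%) were called in 3 comparisons, against 3.56% of all genes, and 1 (1.37%) was called in all 4, against 1.81% of all genes. Rps2, tested in 3 of the comparisons, was called in these 3.

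Rps10 (chr17:27630418-27636669, minus strand, 6 exons), a protein of the head of the small subunit, was the member called in all 4, and 1 such member is no more than the share among all genes gives. It stood at 1150, 1460, 2270 and 1950 CPM in VEH_scramble and at 806, 842, 1030 and 794 in LPS_scramble. In VEH_miR-146a it stood at 1040, 1020, 1060 and 1260 CPM and in LPS_miR-146a at 890, 634, 773 and 729. The groups of Rps10 did not overlap in any of the 4 comparisons, and its log2 fold changes were -0.93 (SE 0.21), -1.05 (SE 0.14), -0.74 (SE 0.15) and -0.54 (SE 0.13) in scramble, miR-7a, miR-29a and miR-146a cells. The limma-voom adjusted p was highest in miR-146a cells, at 0.0388. With decimal marks placed by level alone its estimate in scramble cells turned to 1.63 (limma-voom adjusted p = 0.3).

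In miR-7a cells the largest changes were those of Rplp1 (-1.62, SE 0.23, limma-voom adjusted p = 0.0018), Rpl36 (-1.44, SE 0.20) and Rplp2 (-1.29, SE 0.26), followed by Rps15 (-1.25, SE 0.18) and Rps10. Rplp1 stood at 1030, 1900, 2390 and 2130 CPM in VEH_miR-7a, and at 568, 474, 633 and 681 in LPS_miR-7a. The 3 higher values are those of the libraries rich in structural RNA. Without these 3 libraries, an alternative chosen after seeing the data and leaving 1 VEH library that was assumed to vary like the others, the median over members was -0.55 and 0 were called. Separately, leaving out single libraries gave 20 to 55 called members, fewest without VEH_miR-7a replicate 3, and the other drops beyond 1.5 times came without VEH_miR-7a replicate 2 (27) or 4 (24) and without LPS_miR-7a replicate 2 (25) or 3 (25).

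In miR-29a cells, Rplp1 (-0.97, SE 0.19, limma-voom adjusted p = 0.00368) led again, with Rps2 (-0.80, SE 0.16), Rps15 (-0.80, SE 0.16), Rpl36 (-0.76, SE 0.17) and Rps10. Rplp1 stood at 1070, 1990, 1560 and 1150 CPM under VEH and at 798, 722, 648 and 737 under LPS, without overlap. Of the 78 members tested, 10 had an estimate above 0, the highest being those of Rpl24, of the core of the large subunit (0.55, SE 0.26, limma-voom adjusted p = 0.131), Rpl22l1 (0.45, SE 0.19, limma-voom adjusted p = 0.096) and Rps27l (0.40, SE 0.23, limma-voom adjusted p = 0.222), and none of the 10 passed the test. The replicate block, which the check allowed here, gave 33 members lower and 3 higher, against 37.4% of all genes called. The count was 10 without LPS_miR-29a replicate 3 and 25 without replicate 1 of that group, and without its replicate 2 the median over members was -0.08.

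In miR-146a cells 51 of 79 members had an unadjusted p under 0.05, against 18.3% of all genes, and 2 passed the adjusted threshold. Rps21 (-0.77, SE 0.19) and Rps10 were called at limma-voom adjusted p = 0.0413 and 0.0388. Leaving out any library of either group other than LPS_miR-146a replicate 1 gave 0 called members, and without that replicate 18 were called. Without LPS_miR-146a replicate 2 the median over members was -0.26. After removal of the length and GC trend 14 were called and the median was -0.45, beside -0.47 with the trend left in. edgeR and limma-trend called 0 members and DESeq2 called 7. The shares of all genes called in these alternatives are not given here.

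**Figure D4:**
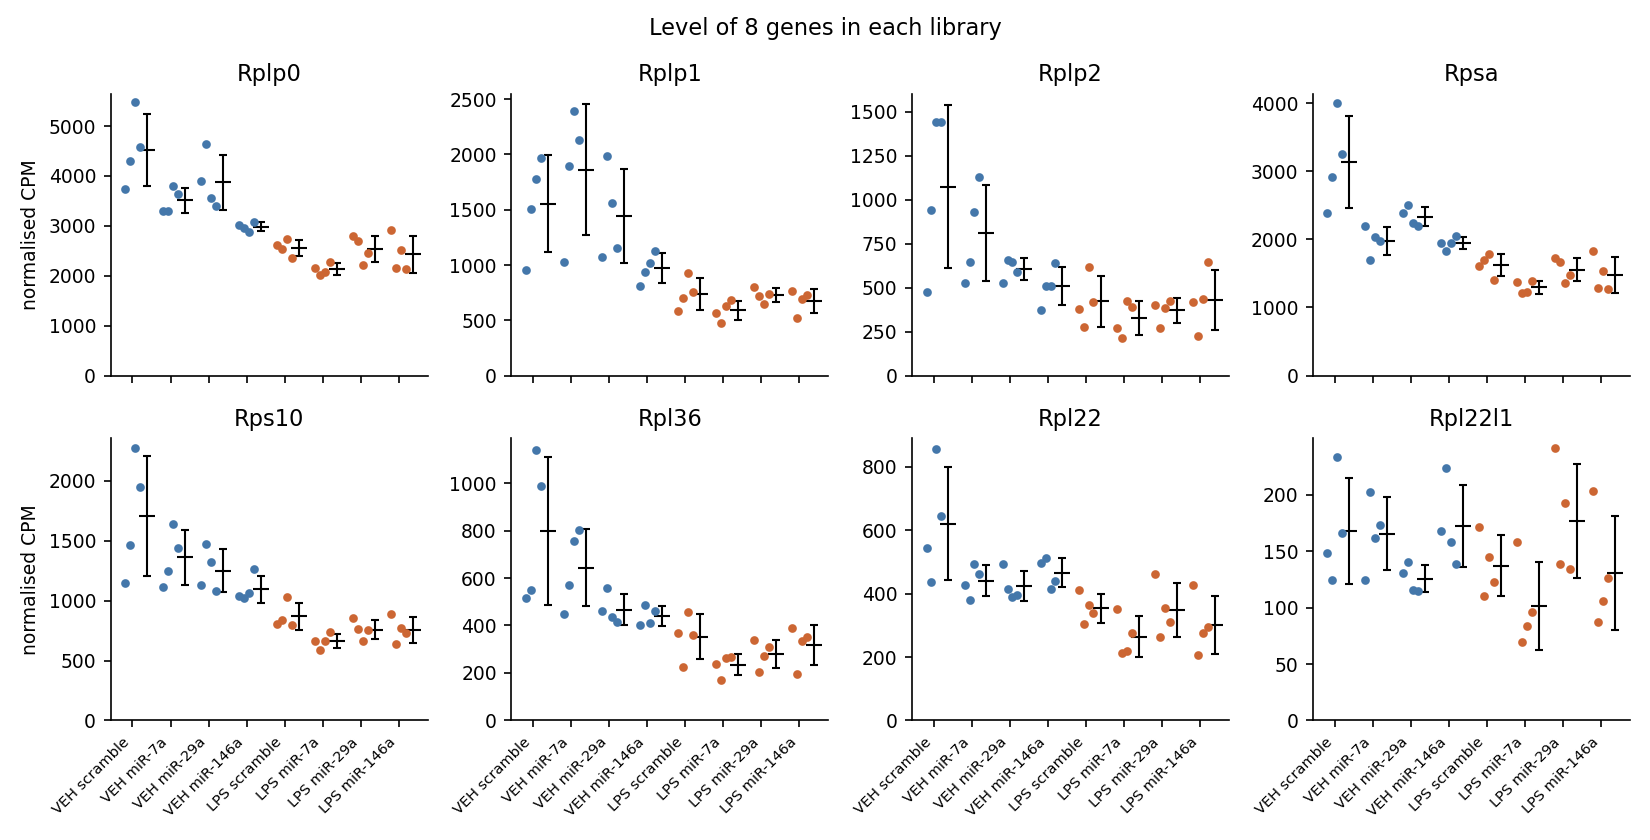
Normalised CPM of 8 genes in each library, with points for replicates 1 to 4 from left to right in each group (blue, VEH; orange, LPS) and the mean with its SD in black. Rplp0 lies between 2360 and 2730 in LPS_scramble against 3730 to 5480 in VEH_scramble, while the values of Rpl22l1 overlap between VEH and LPS in scramble cells and with each mimic.

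Each mimic was then compared with scramble in the same condition, which asks whether the microRNA moves these genes. No member was called in any of the 6 comparisons by limma-voom without the replicate block. With the block some were called, as given below. The 3 mimics share the 4 scramble libraries of their condition, so their values are given side by side and are not independent.

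Under LPS, the median over members was -0.32 for miR-7a (80 tested, 0 called), -0.12 for miR-29a (80 tested, 0 called) and -0.18 for miR-146a (79 tested, 0 called), against 2.48%, 4.61% and 2.21% of all genes called. At an unadjusted p under 0.05 there were 19, 2 and 2 members, against 17.3%, 21.3% and 17.3% of all genes. DESeq2 called 5, 0 and 0 members and edgeR called 0 in each, without a share over all genes to set beside these counts. The medians moved with single libraries. Without replicate 2 of the mimic group they were -0.16, 0.02 and 0.0. Without LPS_scramble replicate 2, which has the same number, they were -0.47 for miR-7a and -0.21 for miR-29a. Over all libraries left out in turn they ran from -0.47 to -0.16, from -0.21 to 0.02 and from -0.33 to 0.0. For miR-7a, 76 of 80 members lay below 0, with Rpl10a, a protein of the stalk at the exit site, lowest at -0.62 (SE 0.16, limma-voom adjusted p = 0.0658). Rpl10a stood at 924, 697, 1020 and 869 CPM in LPS_scramble and at 595, 433, 593 and 652 in LPS_miR-7a, so that its groups did not overlap. Under LPS the replicate numbers paired the samples, and with the block 37 members were called lower for miR-7a against 8.84% of all genes called, 4 lower and 1 higher for miR-29a against 10.1%, and 10 lower for miR-146a against 10.6%. Groups did not overlap, with the mimic lower, in 9, 1 and 1 members, against 6.23%, 6.49% and 6.15% of all genes. Other genes of the same lengths had medians of -0.05, -0.06 and -0.11, and with the length and GC trend removed the medians over members were -0.19, -0.01 and -0.03.

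Under VEH, the median was -0.33 for miR-7a (75 tested, 0 called), -0.51 for miR-29a (75 tested, 0 called) and -0.45 for miR-146a (75 tested, 0 called), against 0.0451%, 0.00858% and 1.98% of all genes called. At an unadjusted p under 0.05 there were 13, 39 and 30 members, against 12.4%, 10.3% and 25% of all genes. DESeq2 called 1, 2 and 23 members and edgeR 0, 0 and 2. The share of all genes that these tools called is not given here, so these counts are not read as particular to members. The high values of VEH_scramble replicates 3 and 4 enter all 3 comparisons, and without replicate 3 the medians were at their smallest, at -0.17, -0.32 and -0.21. For miR-146a, Rps15 came nearest to the threshold, with a log2 fold change of -0.80 (SE 0.19, limma-voom adjusted p = 0.0507). Rps15 stood at 892, 1210, 1550 and 1490 CPM in VEH_scramble and at 688, 731, 674 and 810 in VEH_miR-146a, without overlap. Groups did not overlap, with the mimic lower, in 11, 12 and 20 members, against 4.75%, 3.1% and 8.26% of all genes. The replicate block, allowed by the check for miR-29a, called 0 members there, against 0.429% of all genes. Without VEH_scramble replicate 1, 20 members were called for miR-146a. Other genes of the same lengths had medians of -0.09, -0.18 and -0.3, and with the length and GC trend removed the medians over members were -0.2, -0.24 and -0.02.

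**Figure D5:**
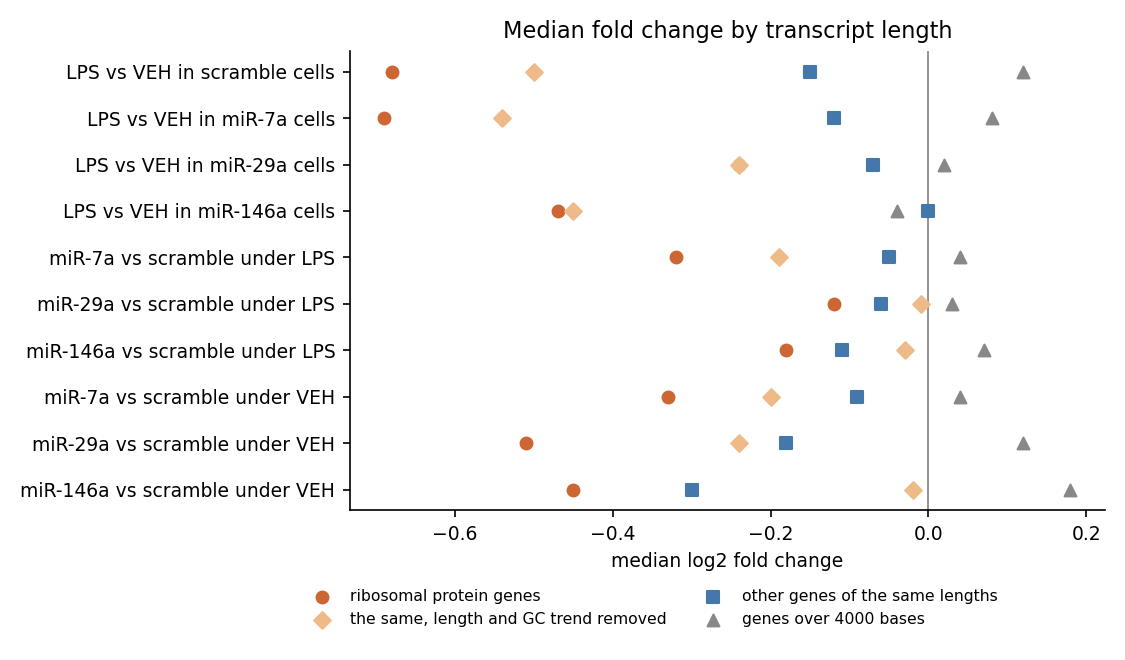
Median log2 fold change of the ribosomal protein genes tested (circles), of the same genes after removal of the trend with length and GC content (diamonds), of other genes of the same transcript lengths (squares) and of genes over 4000 bases (triangles) in 10 comparisons. The circles lie lowest in LPS against VEH, at -0.68 in scramble and -0.69 in miR-7a cells. In LPS against VEH in miR-29a cells circle and diamond coincide at -0.24, and for miR-146a against scramble under VEH the circle at -0.45 moves to -0.02.

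No member with a seed site passed the test. For miR-7a under LPS, Rps15a had a log2 fold change of -0.38 (SE 0.19), Rpl6 of -0.17 (SE 0.19) and Rpl5 of -0.16 (SE 0.42), beside the median of -0.32 over all members. For miR-29a under LPS, Rps15a (-0.11, SE 0.16), Rps3 (-0.07, SE 0.13), Rpl22 (-0.05, SE 0.17), Rpl5 (0.07, SE 0.47) and Rps20 (0.20, SE 0.21) lay around 0. For miR-146a under LPS, Rps15a had -0.33 (SE 0.20), Rpl22 -0.26 (SE 0.19) and Rpl10 -0.21 (SE 0.39). Under VEH their log2 fold changes ran from -0.86 for Rpl5 with miR-29a to -0.22 for Rps3 with miR-29a.

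Whether a mimic acted differently under LPS and VEH was tested as an interaction in 16 libraries each. Limma-voom called 0 members for miR-7a (74 tested, median 0.01), 0 for miR-29a (75 tested, median 0.37) and 0 for miR-146a (74 tested, median 0.22), against 0.00818%, 0.0162% and 0.00808% of all genes called. At an unadjusted p under 0.05 there were 0, 5 and 3 members, against 5.45%, 6.53% and 11% of all genes. DESeq2, edgeR and limma-trend called 0 in each as well. For miR-29a, 74 of 75 members lay above 0, and without VEH_scramble replicate 3 the median was 0.22.

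Other genes of translation were read from the same fits in scramble cells, where 8.13% of all genes were called lower and 9.23% higher. Small counts of calls near these shares are given as values and say nothing particular of a list. Of 20 translation factors and other known TOP mRNAs, 5 were called lower under LPS and 0 higher, with a median of -0.36. They included Fau, which encodes a small subunit protein in a fusion (-0.82, SE 0.21), and the initiation factor subunit Eif3f (-1.08, SE 0.29). Of 48 ribosome biogenesis genes, 2 rose and 2 fell, with a median of 0.02: Nop14 rose by 0.95 (SE 0.23) and Utp18 by 0.68 (SE 0.21), both factors of small subunit processing, while Nop10 fell by 0.93 (SE 0.26) and Grwd1 by 0.81 (SE 0.17). Of 76 mitochondrial ribosomal protein genes tested, 10 fell and 0 rose, with a median of -0.27, led by Mrpl36 (-0.99, SE 0.14). Among 21 genes of mTORC1 and cap-dependent translation control, 2 rose and 1 fell. Myc, a transcription factor that drives ribosome production, rose by 2.12 (SE 0.32), from 3.71 ± 0.536 to 17.1 ± 4.58 CPM (SD, n = 4 each), Rps6kb1, the S6 kinase, rose by 0.61 (SE 0.18) and Eif4ebp2, an inhibitor of cap binding, fell by 0.54 (SE 0.14). The genes named from these lists have an adjusted p under 0.05 by limma-voom.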

How the data were processed

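RNA of BV-2 cells was depleted of ribosomal RNA, made into total RNA libraries and sequenced by the authors, who quantified genes on GRCm38 with an nf-core pipeline and deposited estimated counts for 45706 genes in 32 libraries. The quantifier and annotation release are not given in the sources used here. The submitters' processing notes name edgeR and limma. Of 590874 deposited estimated counts above 0, 28.3% had lost the decimal mark, and these were restored from the digits and the gene's level in other libraries, with 1.22% left uncertain (posterior under 0.9). The group, condition and replicate number of each library were given to this step. The restored values are thus not blind to the groups compared. Among 2689 member values above 0, 2587 were restored and 36, in 10 members, were uncertain. By rule, genes with an uncertain value among the libraries compared were not tested. No 2 libraries held identical values.

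Restored counts were rounded, filtered with filterByExpr, scaled by TMM and tested per pair of groups (8 libraries) with limma-voom, Benjamini-Hochberg adjusted over all genes tested, as were 3 interactions over 16 libraries. Normalised CPM used the same scaling. Replicate numbers came from the titles. The study's methods describe replicates of this cell line as separate experiments, without saying whether a number marks the same experiment in each group. Same-numbered libraries deviated together in every pair, with correlations over 0.1, in 6 of 10 comparisons (0.19 to 0.29 in LPS against VEH with scramble). The start of a transcript was read from RefSeq promoters, and 3′ UTRs, lengths and GC content from GENCODE vM21. Similar genes were found with BLAST 2.17.0. R 4.3.3, limma 3.58.1, edgeR 4.0.16, DESeq2 1.42.0 and Python 3.11.15 were used, and the tests were tried on simulated data. Small totals limit precision, and floors of 3 counts cover counting error only.

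The members, the other gene lists and the rule for named genes were chosen with earlier results of these data known. The rule named members of known role, the 12 called members with the largest change in each direction in LPS against VEH with scramble and the 5 in other comparisons, members without a test, the 5 highest and 5 lowest per kb, and the 3 largest called genes per direction of each other list. Some genes that the rule named are not reported here. Rps15a, Rpl6, Rps20, and Rpl10a and Rps15 in the mimic comparisons, were named after their values were seen. Alternatives are given at the end.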

Additional observations from a re-analysis of the deposited data

Results flagged for a closer look

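Of 120 sets of 4 replicates checked, 5 held a library that stood apart from the other 3 by a gap above the critical share of the range at the 95% level, and chance gives about 1 in 20. Rpl38 stood at 311 normalised CPM in VEH_miR-146a replicate 3, against 337 to 340 in the other replicates. In LPS_miR-7a replicate 2 it stood at 114, against 231 to 247. Rpl7l1 stood at 111 in VEH_miR-146a replicate 1, against 77.9 to 81.5. Rpl39l stood at 0.631 in VEH_scramble replicate 2 and at 0.301 in VEH_miR-146a replicate 4, against 0 in the other replicates of each group.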

How the results depend on the processing

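The direction of the median over members held in LPS against VEH under each alternative run, while the number of members called moved. With a replicate block the called members numbered 59 in scramble, 64 in miR-7a, 36 in miR-29a and 18 in miR-146a cells, and with the mimics 37 (miR-7a), 5 (miR-29a) and 10 (miR-146a) under LPS and 4 (miR-7a) and 11 (miR-146a) under VEH. Where the numbers did not pair the samples, the block called 14.5% (miR-7a cells), 6.89% (miR-146a cells), 3.02% (miR-7a, VEH) and 7.45% (miR-146a, VEH) of all genes. For the alternatives that follow, the share of all genes called is not given here. Their counts are therefore not read as results about members. With the block and the length and GC trend removed the counts were 34 in miR-29a and 49 in miR-146a cells, 28 (miR-7a, all lower), 8 (miR-29a, all higher, against 4 lower and 1 higher with the block alone) and 2 (miR-146a, both lower) under LPS and 1 (miR-146a) under VEH. The trend alone gave 14 in miR-146a cells, and for miR-146a under VEH its removal, with or without the block, took the median to -0.02. Placing decimal marks by level alone left 1 called in scramble, 8 in miR-7a, 0 in miR-29a and 0 in miR-146a cells, turned Rps10 to 1.63 in scramble cells (adjusted p = 0.3 by limma-voom), and gave member shares of 3.96%, 3.08%, 3.46% and 3.08% under VEH and 2.57%, 2.44%, 2.66% and 2.66% under LPS (scramble, miR-7a, miR-29a, miR-146a). A posterior minimum of 0.99 called 1 for miR-7a under LPS. Without the filter on low counts 14 were called in miR-146a cells, 3 for miR-7a under LPS and 21 for miR-146a under VEH. DESeq2 called 7 in miR-146a cells, 5 for miR-7a under LPS, and 1 (miR-7a), 2 (miR-29a) and 23 (miR-146a) under VEH, edgeR 0 in miR-146a cells and 2 for miR-146a under VEH, and limma-trend 0 in miR-146a cells. Of the alternatives chosen after seeing the data, copies summed called 1 for miR-146a under VEH, and leaving out the libraries rich in structural RNA called 0 in miR-7a cells. Of protein-coding counts, members held 9.99% (scramble), 8.07% (miR-7a), 7.44% (miR-29a) and 7.27% (miR-146a) under VEH and 6.47% (scramble), 5.29% (miR-7a), 6.32% (miR-29a) and 5.74% (miR-146a) under LPS. Leaving out 1 library gave 13 to 48 in scramble, 20 to 55 in miR-7a, 10 to 25 in miR-29a and 0 to 18 in miR-146a cells, 0 to 2 for miR-7a under LPS (2 without LPS_scramble replicate 2, 1 without LPS_miR-7a replicate 4) and 0 to 20 for miR-146a under VEH (20 without VEH_scramble replicate 1). Of 832 values of named members under alternatives, 713 kept direction and call, 98 lost the call, 20 gained it and 1 turned. The causes were not tested. Other size factors, scaling by protein-coding genes and a log2 limit of 0.3 moved no count by over 1.5 times. Totals from 1130000 to 20300000 counts limit the low members, and 10 members were left out of the test in scramble cells by rule.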

Other observations

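Some members split their replicates by number in the same way in each group, a pattern chosen after the values were seen. Rpl5, Rpl21 and Rps25 were lower in replicates 1 and 2 than in replicates 3 and 4 in 8 of 8 groups, Rpl8 in 7 of 8 and Rplp2 in 6 of 8. The share of all genes that split in this way is not given here, so the pattern is not read as particular to members. Rpl10 and Rps28 split in the same way in 5 of the 5 groups in which every value was read with certainty. Rpl10 stood at 682, 581, 1670 and 1350 normalised CPM in LPS_scramble, and Rpl5 at 464, 246, 869 and 860. Rpl10 and Rps28 were not tested in scramble cells because of uncertain values in VEH_scramble. Whether replicates 1 and 2 were prepared apart from 3 and 4 is not given in the labels.

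The other lists of translation genes were also read in cells with mimics. In miR-7a cells, where 4.01% of all genes were called lower and 2.63% higher, 6 of 20 translation factors and other TOP mRNAs and 3 of 77 mitochondrial ribosomal protein genes fell under LPS, and 0 of 48 ribosome biogenesis genes were called. In miR-29a cells, where 13.7% of all genes were called lower and 12.6% higher, 4 of 20 TOP mRNAs fell, 6 of 77 mitochondrial ribosomal protein genes rose and 0 fell, with a median of 0.03, and 3 of 48 biogenesis genes rose and 1 fell. In miR-146a cells, where 1.58% of all genes were called lower and 2.83% higher, 0 genes of these 3 lists were called by limma-voom, with medians of -0.31, -0.05 and -0.15 for TOP mRNAs, mitochondrial ribosomal proteins and biogenesis. The difference between mimics was not tested for these lists.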
